A study of Mus musculus with 8 samples.

Results

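The 10 genes described here encode the adaptors of the kinase TBK1, the kinases they bind, and the subunits of NF-kB with their main inhibitor, and they are 10 of the 54532 genes counted in 4T1 mouse mammary carcinoma cells. They were taken by symbol as the adaptors Tbkbp1, Tank and Azi2, the kinases Tbk1 and Ikbke, the inhibitor Nfkbia, and the subunits Rela, Relb, Nfkb1 and Nfkb2. Tbkbp1 was chosen for its strong difference between the lines, so its values in that comparison are given as a description without a test. All 10 genes had more than 1 CPM, a gene's count per 1000000 counts of its library, in at least 2 of the 8 libraries, the filter that 12704 genes passed.

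4T1 is a cell line from a spontaneous mammary tumor of BALB/c mice. Both lines were stably transfected with an shRNA plasmid and kept in puromycin, with the shRNA directed against MCT-1 (shMCT-1) or scrambled (scramble), and neither is described as a clone. Each line received IgG or an antibody against the mouse IL-6 receptor (anti-IL-6R) at 100 ng/ml for 48 h, and the dose of IgG is not given in the sources used here. Each of the 4 combinations of line and treatment, written as scramble + IgG and so on, was sequenced in 2 libraries from poly(A) RNA, and the authors deposited expected counts. Nothing states that the libraries of a group came from separate cultures, so the p-values measure the spread between these libraries, which may be technical.

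Library totals ran from 24100084 to 33063570 counts in scramble and from 19839299 to 23448587 in shMCT-1, and mitochondrial transcripts took 1.97% to 2.52% of the counts in scramble and 0.840% to 1.53% in shMCT-1. The part of these differences in the results was not tested. Of the 7 markers of mammary epithelial carcinoma cells, 5 exceeded 1 CPM in every library, with Krt5 listed at 0 and Trp63 under 1 CPM, and the summed level of all 7 was 2034 to 2175 CPM in scramble and 2577 to 2782 CPM in shMCT-1. Among them Epcam was at 3.75 to 4.93 CPM in scramble and 49.4 to 54.5 CPM in shMCT-1, and Cdh1, the gene of E-cadherin, at 290.6 to 315 and 245 to 305 CPM. Leukocyte markers stayed under 1 CPM for all 6 genes. Of the fibroblast markers only Pdgfra, 1 of 5, exceeded 1 CPM in every library, and no endothelial marker of 5 did, with summed levels of 12.6 to 17.2 CPM and 1.22 to 3.73 CPM. Mcts1, the gene of MCT-1, was at 15.4, 11.8, 12.8 and 13.5 CPM in the scramble libraries and at 6.32, 6.18, 6.70 and 4.92 CPM in the shMCT-1 libraries. All 4 shMCT-1 values lay below all 4 scramble values (log2 fold change -1.08 within IgG, edgeR adjusted p = 0.000676).

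TBK1 and its relative IKKε, the product of Ikbke, phosphorylate the interferon regulatory factors after cells sense foreign nucleic acid, and they also act beside the classical IκB kinases. Each works in a complex with an adaptor, TANK, NAP1 (the product of Azi2) or SINTBAD (the product of Tbkbp1), and the adaptors compete for the same site on the kinase. NF-kB is a dimer of Rel proteins that IκBα, the product of Nfkbia, holds in the cytoplasm, and p105 and p100, the products of Nfkb1 and Nfkb2, are cut to the subunits p50 and p52. Nfkbia and Nfkb2 are known as targets of NF-kB themselves, so that their transcripts depend on its activity in many cells.

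The promoters of the members are shown first, because some of these genes carry the binding letters of the factor that other members form. The NF-kB consensus of 10 bases was searched on both strands in the RefSeq promoter entries (GRCm38.p6, 250 bases before to 50 after a start site), which were found for 8 of the 10 genes, with 14 entries, and none was in the table for Relb and Nfkb1. It was present in 9 of these 14 entries, against 8.46% of all 32851 entries of the same length, and several of the 9 come from the same gene, overlap and share a match. By gene, 4 of the 8 held it, Tbkbp1, Tank, Nfkbia and Nfkb2. No share by gene was computed for all genes, and a gene with more entries has more places for a match. A match is a description of the letters in this window. The stretches below end at the base before the start site, except that of Nfkb2, and capitals mark the consensus. The genome is the C57BL/6J reference, whereas 4T1 cells come from BALB/c mice. Tbkbp1 has 2 entries, an outer start site without the motif and an inner one, inside the gene, with a match 182 bases before it.
Tbkbp1 outer start site, chr11:97151507-97151756, minus strand, GRCm38.p6: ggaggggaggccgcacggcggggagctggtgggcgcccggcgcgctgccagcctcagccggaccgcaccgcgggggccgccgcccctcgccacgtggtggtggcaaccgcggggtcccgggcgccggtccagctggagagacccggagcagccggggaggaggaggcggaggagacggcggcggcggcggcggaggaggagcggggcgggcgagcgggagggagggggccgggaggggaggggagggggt
Tbkbp1 inner start site, chr11:97150076-97150325, minus strand, GRCm38.p6: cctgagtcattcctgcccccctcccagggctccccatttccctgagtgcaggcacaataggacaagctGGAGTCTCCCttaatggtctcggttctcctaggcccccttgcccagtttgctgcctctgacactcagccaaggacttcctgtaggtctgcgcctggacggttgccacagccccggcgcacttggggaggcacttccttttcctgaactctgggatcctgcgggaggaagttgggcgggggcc
Tank has 4 entries with 1 match each, and the stretch shown, before its outermost start site, ends with the match, on the strand opposite to the gene. That of Nfkbia, on chromosome 12, has its match 29 bases before the start site.
Tank, chr2:61578307-61578556, plus strand, GRCm38.p6: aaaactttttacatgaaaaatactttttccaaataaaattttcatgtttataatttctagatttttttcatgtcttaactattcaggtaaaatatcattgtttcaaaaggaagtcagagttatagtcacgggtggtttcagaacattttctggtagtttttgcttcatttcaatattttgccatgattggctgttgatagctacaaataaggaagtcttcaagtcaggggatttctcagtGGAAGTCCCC
Nfkbia, chr12:55492648-55492897, minus strand, GRCm38.p6: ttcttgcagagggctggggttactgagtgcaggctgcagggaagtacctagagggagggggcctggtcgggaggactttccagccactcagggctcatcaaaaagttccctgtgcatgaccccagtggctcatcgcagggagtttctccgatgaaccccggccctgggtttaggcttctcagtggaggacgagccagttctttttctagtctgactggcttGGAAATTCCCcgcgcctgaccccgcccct
Nfkb2 has 3 entries, of which the outermost holds the motif at 3 positions, and 0.186% of all entries hold it at 3 or more. The 30 bases printed lie 49 to 20 bases before that start site, in an exon annotated for another Nfkb2 transcript, and begin the cluster with a palindromic match 39 bases before the site that overlaps the next.
Nfkb2, chr19:46304688-46304717, plus strand, GRCm38.p6: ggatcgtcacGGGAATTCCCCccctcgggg

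Tbkbp1 (ENSMUSG00000038517, chr11:97136171-97151495, minus strand, GRCm38, protein coding) showed the widest difference between the lines among the 10 genes. Its level was 4.98, 6.02, 5.47 and 6.11 CPM in the scramble libraries, where the first pair received IgG and the second anti-IL-6R, and 71.4, 67.7, 80.7 and 67.5 CPM in the shMCT-1 libraries in the same order. The lines did not overlap, and the lowest shMCT-1 library stood far above the highest scramble library. The means were 5.64 ± 0.526 CPM (SD, n = 4) in scramble and 71.8 ± 6.17 CPM (SD, n = 4) in shMCT-1, 12.7 times as high, and at least 137 counts stood behind every value. The fitted log2 fold change was 3.71 within IgG and 3.73 within anti-IL-6R. Since Tbkbp1 was chosen by this contrast, no test is attached to it.

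Tank, the gene of the adaptor best known for binding TRAF proteins, was the member with the largest decrease (ENSMUSG00000064289, chr2:61578585-61654171, plus strand). Its level was 54.3 and 73.5 CPM in scramble + IgG, 52.7 and 53.1 CPM in scramble + anti-IL-6R, 25.1 and 30.4 CPM in shMCT-1 + IgG, and 27.0 and 29.3 CPM in shMCT-1 + anti-IL-6R. Every shMCT-1 library lay below every scramble library, and the second library of scramble + IgG stood above the rest. Upon shMCT-1 the log2 fold change was -1.16 ± 0.151 (SE) within IgG and -0.85 ± 0.151 (SE) within anti-IL-6R, with adjusted p = 0.000216 and adjusted p = 0.00118 in edgeR's quasi-likelihood test. Without that library the value within IgG was -0.91, and the call stood.

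Azi2 (ENSMUSG00000039285, chr9:118040499-118069794, plus strand), the gene of the adaptor NAP1, fell by a smaller amount. It was at 51.8 and 50.7 CPM in scramble + IgG, 48.1 and 48.8 CPM in scramble + anti-IL-6R, 40.8 and 41.1 CPM in shMCT-1 + IgG, and 35.6 and 40.6 CPM in shMCT-1 + anti-IL-6R. The lines did not overlap. Its log2 fold change was -0.28 ± 0.0873 (SE) within IgG (adjusted p = 0.0202) and -0.29 ± 0.0875 (SE) within anti-IL-6R (adjusted p = 0.0179) by the same edgeR test. The call within IgG was lost without either shMCT-1 + IgG library, and that within anti-IL-6R without either scramble + anti-IL-6R library or the first of shMCT-1 + anti-IL-6R, where the value was -0.19. The gene overlaps Cmc1 on the opposite strand, at 6.68 to 13.3 CPM, and whether strand was used in counting is not given in the sources used here.

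Of the kinases, Tbk1 was lower in shMCT-1 and Ikbke was not distinguishable between the lines. Tbk1 (ENSMUSG00000020115, chr10:121546455-121586787, minus strand) was at 44.9, 51.0, 42.6 and 44.1 CPM in the scramble libraries and at 33.5, 40.7, 32.0 and 36.9 CPM in the shMCT-1 libraries, without overlap. It passed the test within IgG (log2 fold change -0.33 ± 0.121 SE, edgeR adjusted p = 0.0426) and not within anti-IL-6R (-0.27 ± 0.121 SE, edgeR adjusted p = 0.0794). The log2 fold changes differed by 0.05 between the treatments, with a 95% interval of the difference from -0.33 to 0.43. The call within IgG was kept under 10 of 16 alternatives, and it was lost without either scramble + anti-IL-6R library, without the second of scramble + IgG (-0.22) and without the first of shMCT-1 + IgG (-0.19). Ikbke (ENSMUSG00000042349, chr1:131254343-131279606, minus strand) ran from 26.3 to 29.0 CPM in scramble and from 26.2 to 31.2 CPM in shMCT-1. Its 95% interval was -0.20 to 0.29 within IgG and -0.13 to 0.35 within anti-IL-6R on the log2 scale.

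Nfkbia, which encodes the inhibitor IκBα, was lower in every shMCT-1 library (ENSMUSG00000021025, chr12:55489410-55492647, minus strand). Its level was 147 and 150.3 CPM in scramble + IgG, 157 and 149 CPM in scramble + anti-IL-6R, 97.1 and 108 CPM in shMCT-1 + IgG, and 104 and 95.2 CPM in shMCT-1 + anti-IL-6R. The spread within a line was small beside the gap between the lines. The log2 fold change was -0.50 ± 0.091 (SE) within IgG (edgeR adjusted p = 0.00142) and -0.56 ± 0.0911 (SE) within anti-IL-6R (edgeR adjusted p = 0.000703).

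Among the subunits, Nfkb1 was lower in shMCT-1 under both treatments, Rela passed the test only within IgG, and Relb and Nfkb2 passed it in neither. Nfkb1, the gene of p105 and p50 (ENSMUSG00000028163, chr3:135584655-135691547, minus strand), was at 215, 193, 210.4 and 216 CPM in the scramble libraries and at 151, 153, 157 and 170.2 CPM in the shMCT-1 libraries. The highest shMCT-1 value stayed below the lowest scramble value, and the log2 fold change was -0.38 ± 0.0828 (SE) within IgG (edgeR adjusted p = 0.00368) and -0.33 ± 0.0826 (SE) within anti-IL-6R (edgeR adjusted p = 0.00764). Its call within anti-IL-6R was lost without the second library of scramble + anti-IL-6R, at -0.32. Rela, the gene of the transactivating subunit p65 (ENSMUSG00000024927, chr19:5637483-5648130, plus strand), was at 157, 158, 164 and 152 CPM in scramble and at 136, 118, 143 and 135 CPM in shMCT-1, again without overlap. Its log2 fold change was -0.26 ± 0.0945 (SE) within IgG (edgeR adjusted p = 0.0369) and -0.13 ± 0.0942 (SE) within anti-IL-6R (edgeR adjusted p = 0.273). The difference between these values had a 95% interval from -0.16 to 0.44, and the call within IgG was kept under 9 of 16 alternatives. It was lost without any of the 4 scramble libraries and without the second of shMCT-1 + IgG, where the value was -0.17. 

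Relb, the gene of the subunit that pairs with p52 (ENSMUSG00000002983, chr7:19606217-19629438, minus strand), was at 56.7, 42.6, 56.1 and 52.9 CPM in scramble and at 45.7, 46.5, 54.5 and 46.2 CPM in shMCT-1, so that the lines overlapped. Its 95% interval was -0.36 to 0.23 within IgG and -0.35 to 0.23 within anti-IL-6R on the log2 scale, with the libraries of scramble + IgG differing from each other by more than the lines did. Nfkb2, the gene of p100 and p52 (ENSMUSG00000025225, chr19:46304320-46312385, plus strand), was at 347, 322, 346 and 342 CPM in scramble and at 297, 283, 361 and 326 CPM in shMCT-1. Both shMCT-1 + IgG libraries lay below all scramble libraries, while of shMCT-1 + anti-IL-6R the first lay above all of them and the second among them. Its log2 fold change was -0.16 ± 0.0861 (SE, edgeR adjusted p = 0.134) within IgG and 0.06 ± 0.086 (SE, edgeR adjusted p = 0.602) within anti-IL-6R. Nfkb2 overlaps Psd on the opposite strand, at 10.0 to 19.02 CPM.

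**Figure D1:**
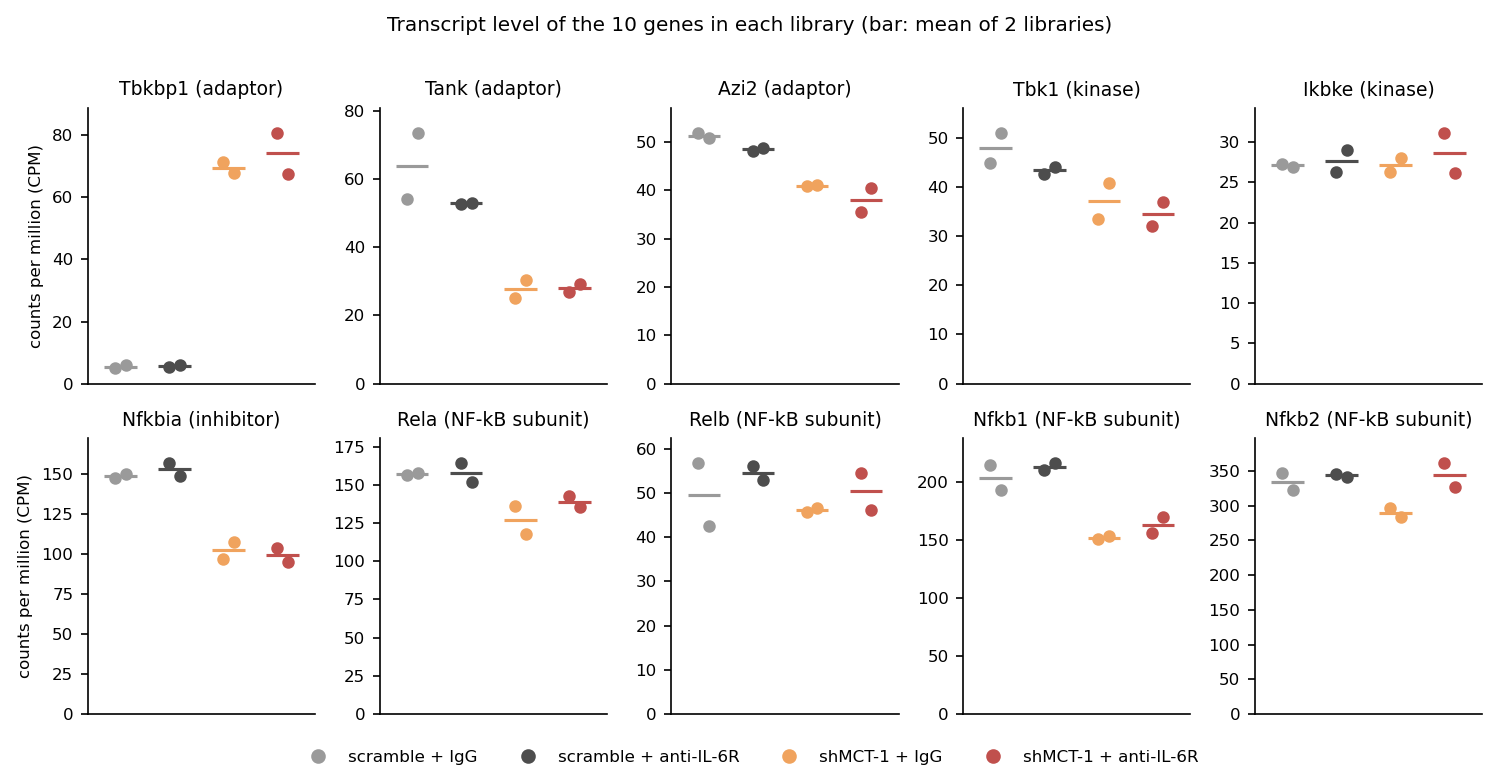
Level of each gene in CPM on the y axis, from 0, with 1 point per library, 4 groups of 2 libraries side by side, and bars at the group means. Tbkbp1 is near 5 CPM in scramble and above 67 CPM in shMCT-1, Tank, Azi2, Tbk1, Nfkbia, Rela and Nfkb1 are lower in every shMCT-1 library, and Ikbke, Relb and Nfkb2 overlap.

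Besides Tbkbp1, 6 of the 9 other genes were called lower in shMCT-1 than in scramble within IgG (Tank, Azi2, Tbk1, Nfkbia, Rela and Nfkb1) and 0 were called higher. Over all 12704 genes tested, 54.4% were called in this comparison, 26.2% lower and 28.3% higher. Within anti-IL-6R, 4 of 9 were called lower (Tank, Azi2, Nfkbia and Nfkb1) and 0 higher, beside 54.3% of all genes, 27.3% lower and 26.9% higher. The share called was thus near that of all genes, and the direction was lower for each of the called members. The median log2 fold change of the 9 genes was -0.28 within IgG and -0.27 within anti-IL-6R, while that of all genes was 0.01 in both. Counted over the 8 libraries, 6 of 9 genes had no overlap between the lines and all 6 were lower in shMCT-1, and 64.1% of all genes did not overlap, 34.2% lower and 29.9% higher. Without the second library of scramble + anti-IL-6R, Azi2 and Nfkb1 lost their calls within anti-IL-6R. Fewer of all genes were called in that fit as well, and it has no spread within the reduced group. The comparisons within IgG and within anti-IL-6R share no library, but they share the estimate of the spread.

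**Figure D2:**
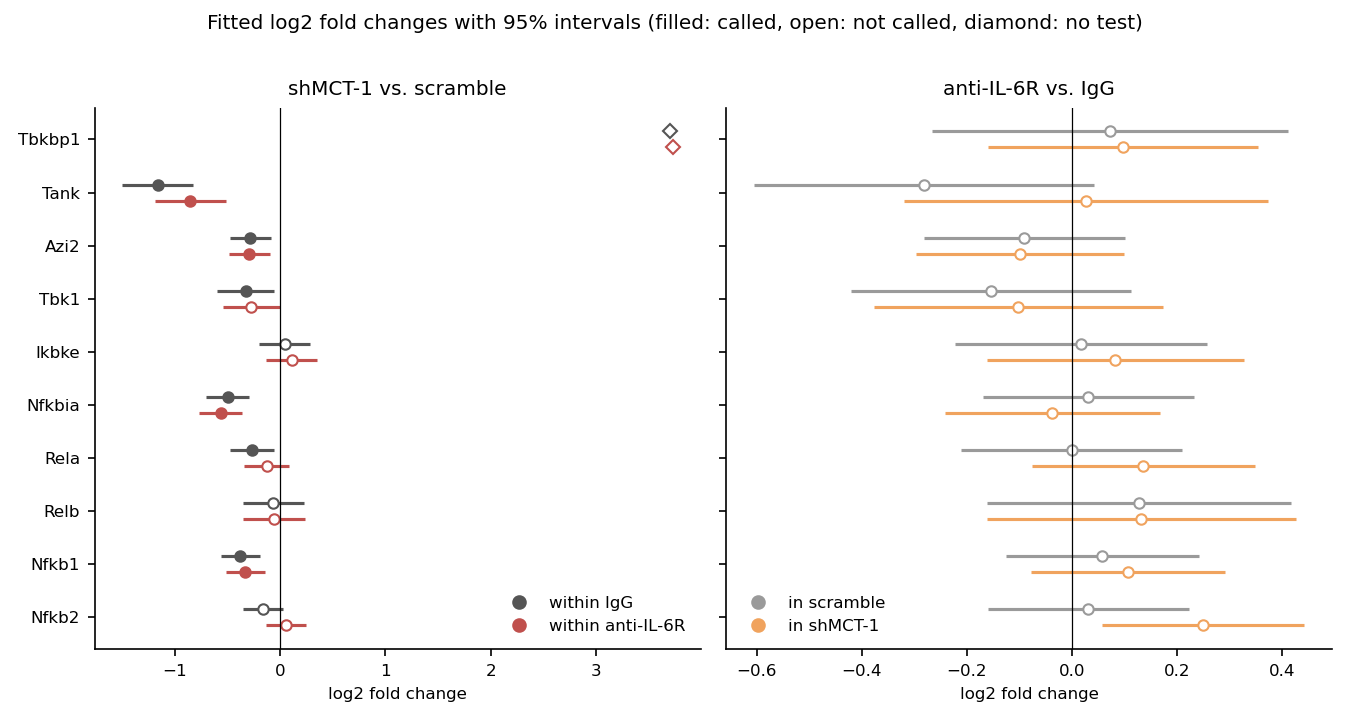
Log2 fold changes of the 10 genes on the x axis for shMCT-1 vs. scramble (left) and for anti-IL-6R vs. IgG (right), with 95% intervals of the edgeR fit, and Tbkbp1 without an interval on the left because it was chosen by that contrast. On the left 6 genes within IgG and 4 within anti-IL-6R are called, all below 0, and on the right none is called.

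Ratios within a library do not depend on its total. The ratio of Nfkbia to Rela, the inhibitor to the subunit it holds, was 0.941 to 0.983 in the scramble libraries and 0.704 to 0.913 in the shMCT-1 libraries, on the CPM scale. The ratio of Tank to Tbk1 was 1.20 to 1.44 in scramble and 0.745 to 0.845 in shMCT-1, and that of Nfkb1 to Nfkb2 was 0.600 to 0.633 and 0.434 to 0.541. None of these 3 ratios overlapped between the lines. Of all tested genes, 64.1% did not overlap either, and no such share was computed for ratios of other gene pairs.

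To compare levels between genes, CPM were divided by transcript length. On the principal coding transcript, the adaptors in scramble stood in the order Tank with 19.5 to 27.2 CPM per kb, Azi2 with 14.2 to 15.3 CPM per kb and Tbkbp1 with 1.49 to 1.83 CPM per kb, without overlap. In shMCT-1 Tbkbp1 came on top with 20.2 to 24.2 CPM per kb, and Azi2 with 10.5 to 12.1 CPM per kb and Tank with 9.30 to 11.3 CPM per kb overlapped. Tbkbp1 thus made up 4.04% to 5.10% of the adaptor transcripts in scramble and 46.5% to 54.1% in shMCT-1, which restates the difference it was chosen for. The sum of the adaptors was 35.3 to 44.0 CPM per kb in scramble and 42.7 to 44.7 CPM per kb in shMCT-1, so that it overlapped, whereas with the union of all exons as the length it was 17.5 to 21.4 and 28.1 to 30.3 CPM per kb and did not. The sum includes Tbkbp1, so it is not a result apart from the choice of that gene.

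Of the kinases, Tbk1 had 14.1 to 16.8 CPM per kb in scramble and 10.6 to 13.5 CPM per kb in shMCT-1, above Ikbke with 8.08 to 8.91 and 8.07 to 9.58 CPM per kb. Among the Rel transcripts the order in both lines was Nfkb2, Rela, Nfkb1, Relb and, lowest, Rel, the gene of c-Rel. In shMCT-1 Nfkb2 was at 73.6 to 93.9 CPM per kb, Rela at 43.5 to 52.6 CPM per kb, Nfkb1 at 36.7 to 41.3 CPM per kb, Relb at 20.7 to 24.7 CPM per kb and Rel at 2.45 to 3.15 CPM per kb, and no neighbours in that order overlapped. With the union of exons, Nfkb1 (12.5 to 14.1 CPM per kb) and Relb (11.8 to 14.0 CPM per kb) did overlap in shMCT-1. The share of Nfkb1 among the Rel transcripts was 22.0% to 23.2% in scramble and 18.0% to 20.9% in shMCT-1, and the share of Nfkb2 was 38.8% to 39.3% and 41.1% to 44.4%.

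**Figure D3:**
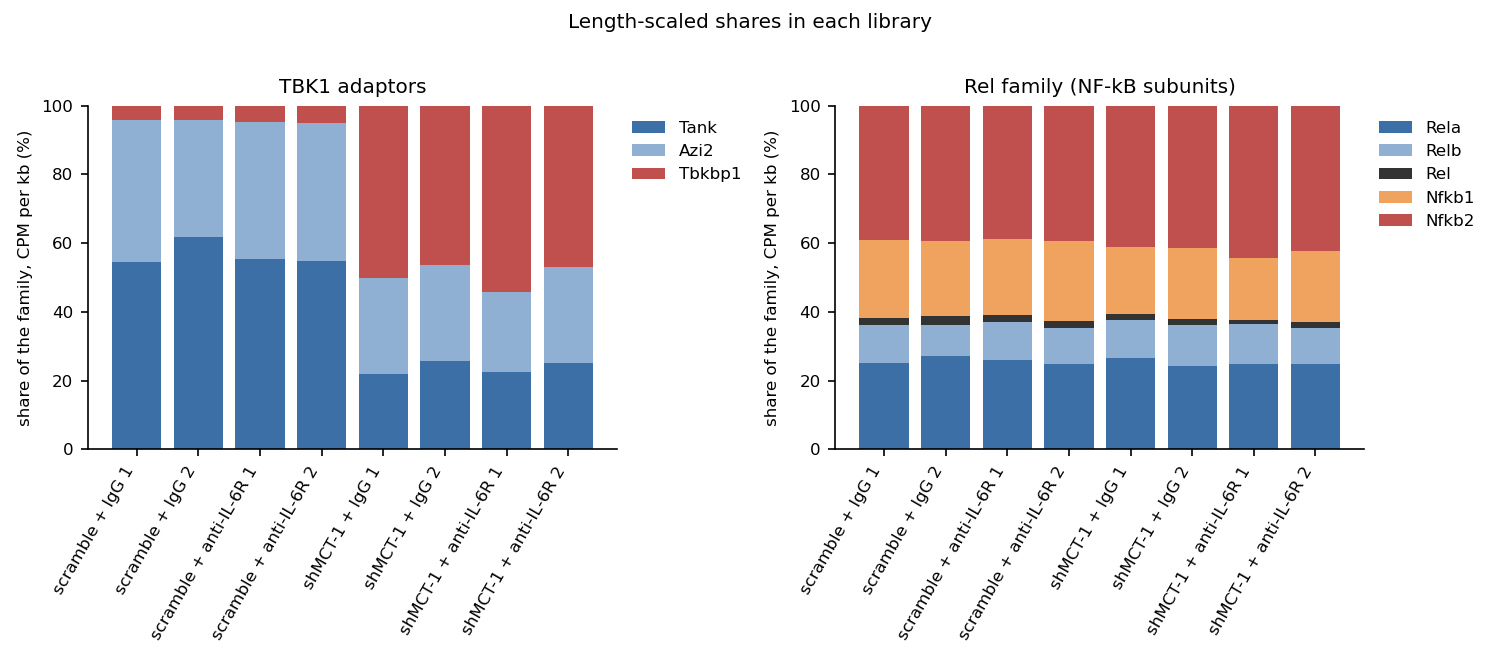
Share of each gene in its family in percent, from CPM per kb of principal transcript, with 1 stacked bar per library for the adaptors (left) and the Rel transcripts (right). Tbkbp1 takes 4.04% to 5.10% of the adaptor bar in scramble and 46.5% to 54.1% in shMCT-1, and the Rel bars keep the order of their parts.

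The members lie on 9 chromosomes, and the chromosomes differed in their medians between the lines. Chromosome 2, which carries Tank, had a median log2 fold change of -0.36 over its 1001 tested genes within IgG and within anti-IL-6R, and chromosome 12, which carries Nfkbia, had -0.36 over 482 genes in both. Tank lay below the median of its chromosome by -0.80 within IgG and -0.49 within anti-IL-6R, and 9.79% and 21.2% of the genes on chromosome 2 had lower values. Nfkbia lay nearer to its chromosome, by -0.14 and -0.21, with 40.2% and 36.9% of the genes on chromosome 12 below it. The other members lie on chromosomes whose medians within IgG were 0.03 (Azi2, chromosome 9) to 0.23 (Ikbke, chromosome 1), and Nfkb1 was 0.47 log2 units lower than the median of chromosome 3 within IgG. The part of these chromosome-wide differences in the values of Tank and Nfkbia was not tested.

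Around Tbkbp1, no neighbour had a difference of its size. The 5 tested genes on each side lie from 169 kb below to 264 kb above its start site on chromosome 11. Of these neighbours, 5 were called higher and 1 lower in both comparisons of the lines. Over all tested genes, 28.3% were called higher and 26.2% lower within IgG, and 26.9% and 27.3% within anti-IL-6R. The median log2 fold change of the neighbours was 0.16 within IgG and 0.21 within anti-IL-6R. Sp6, which encodes a zinc finger factor of the Sp family, was the highest of them, with a mean of 5.29 CPM in scramble and 11.7 CPM in shMCT-1 and log2 fold changes of 1.24 and 1.15. Scrn2, Mrpl10, Osbpl7 and Mrpl45 were called higher with log2 fold changes of 0.73, 0.58, 0.40 and 0.44 within IgG, and Npepps was called lower with -0.28. The nearest gene above, Kpnb1, which encodes importin beta, had -0.15 within IgG and -0.03 within anti-IL-6R and was not called, and neither were Sp2, Socs7 and Arhgap23. The chromosome as a whole had a median of 0.15, and 99.4% of its 1001 tested genes had lower values than Tbkbp1 in each comparison. Among all tested genes it ranked 170 within IgG and 193 within anti-IL-6R by absolute log2 fold change. Tbkbp1 was chosen for its difference between the lines, so its rank and its gap to the neighbours restate that choice.

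**Figure D4:**
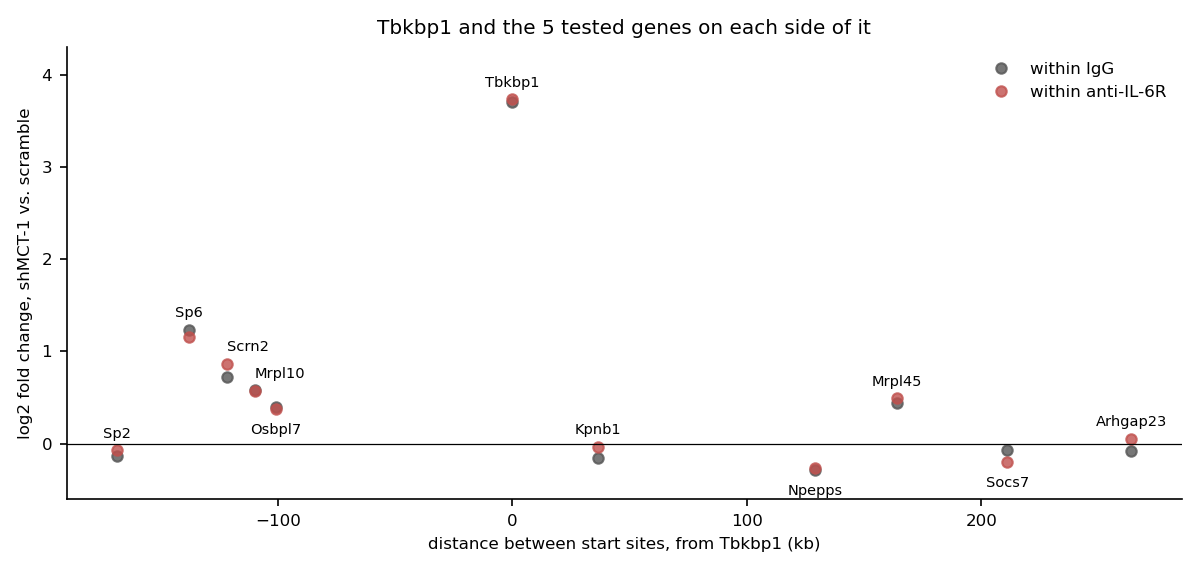
Log2 fold change of shMCT-1 vs. scramble on the y axis against the distance of each gene's start site from that of Tbkbp1 in kb, for Tbkbp1 and the 5 tested genes on each side, with 1 point per treatment. Tbkbp1 stands at 3.71 and 3.73, and its neighbours lie between -0.28 and 1.24.

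The genes most like Tbkbp1 over the 8 libraries were chosen by the smallest root mean square difference of log2 CPM, centred on each gene's mean. They were Sdc3, which encodes the proteoglycan syndecan 3 (difference 0.147), Serpinb5, which encodes maspin (0.155), Spata13 (0.165), Batf3, which encodes a basic leucine zipper factor (0.168), and 2810468N07Rik (0.178). Sdc3 was at 3.42 to 4.11 CPM in scramble and 45.8 to 57.5 CPM in shMCT-1, Serpinb5 at 1.72 to 2.16 and 18.3 to 25.2 CPM, and Spata13 at 0.864 to 1.16 and 11.9 to 14.0 CPM. Batf3 had at most 1 count and 2810468N07Rik 0 counts in each scramble library, so that both passed the filter only through shMCT-1 and their likeness rests on the prior count of 2 added before the logarithm, and they reached 1.09 to 1.65 CPM and 0.824 to 1.14 CPM in shMCT-1. None of the 5 lies on chromosome 11. Tbkbp1 varied mainly between the lines, the contrast it was chosen for. Likeness to it therefore mostly picks genes with a difference of like size between the lines.

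The other genes of the TBK1 and NF-kB pathways were counted in 6 lists with 81 genes, of which 71 were tested. Within IgG 50 of the 71 were called, 20 higher and 30 lower in shMCT-1, and within anti-IL-6R 48 were called, 19 higher and 29 lower. Of all genes, 54.4% were called within IgG, 28.3% higher and 26.2% lower. Within anti-IL-6R 54.3% were called, 26.9% higher and 27.3% lower. The counts of each list below stand beside these same shares. Fewer of the 71 were called within IgG without the first library of shMCT-1 + IgG. The same held within anti-IL-6R without the second library of scramble + anti-IL-6R. Fewer of all genes were called in these fits as well, and the fits have no spread within the reduced group. The median log2 fold change of the 71 genes was -0.20 within IgG and -0.12 within anti-IL-6R. The lists were chosen with earlier results of these data known, and the genes named are those that the rule in the methods gives.

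TBK1 partners and activators moved in both directions. Of 14 tested genes, 5 were called higher and 6 lower within IgG, and 4 higher and 6 lower within anti-IL-6R. Sting1, listed as Tmem173 in the annotation, which encodes the adaptor of cytosolic DNA sensing, rose from 1.27 to 1.95 CPM in scramble to 7.51 to 9.61 CPM in shMCT-1 (log2 fold change 2.49 within IgG, edgeR adjusted p = 3.54e-05). Ifih1, the gene of the RNA sensor MDA5, rose from 0.640 to 1.60 CPM to 5.42 to 7.46 CPM, and Tlr3, the gene of the endosomal RNA receptor, from 4.45 to 5.23 CPM to 6.40 to 9.61 CPM. Lower were Ddx58, the gene of the RNA sensor RIG-I (47.1 to 51.5 against 22.4 to 28.3 CPM), Traf3, the gene of a TBK1-recruiting ubiquitin ligase (178 to 206 against 107 to 123 CPM), and Mavs, the gene of the mitochondrial adaptor of the RNA sensors (52.4 to 57.8 against 32.6 to 39.8 CPM). 

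In the list of the IKK complex and its canonical upstream, 3 genes of 17 were called higher and 8 lower within IgG, and 4 higher and 8 lower within anti-IL-6R. Map3k7, the gene of the kinase TAK1, was at 149 to 164 CPM in scramble and 72.6 to 88.4 CPM in shMCT-1 (log2 fold change -0.97 within IgG, edgeR adjusted p = 7.58e-05). Traf6, a ubiquitin ligase gene downstream of interleukin-1 and Toll-like receptors, fell from 45.1 to 50.6 CPM to 24.6 to 28.9 CPM, and Ripk1, a kinase gene downstream of the TNF receptor, from 53.2 to 60.3 CPM to 31.3 to 33.7 CPM. Tradd, the gene of a TNF receptor adaptor, rose from 10.6 to 16.0 CPM to 19.1 to 25.1 CPM. Sharpin and Rnf31, which encode parts of the linear ubiquitin ligase, rose with log2 fold changes of 0.47 and 0.30 within IgG.

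The noncanonical upstream list had 5 tested genes, of which 2 were called higher and 1 lower within IgG and 1 higher and 1 lower within anti-IL-6R. Cd40, the gene of a TNF family receptor, had at most 1 count in each scramble library and 0.870 to 1.36 CPM in shMCT-1. It passed the filter only through shMCT-1, and it is 1 of the 2 higher calls within IgG and the only higher call within anti-IL-6R. No gene of this list met the rule for naming, and Cd40 is named after its values were seen. Of the 7 other Rel and IκB family genes, 1 was called higher and 2 lower in both comparisons. Rel fell from 34.3 to 38.2 CPM to 18.3 to 23.5 CPM (log2 fold change -0.68 within IgG, edgeR adjusted p = 0.00131), Nfkbie, the gene of IκBε, from 42.3 to 54.2 CPM to 31.6 to 39.9 CPM, and Bcl3, the gene of a nuclear IκB protein, rose from 2.29 to 2.78 CPM to 4.28 to 5.54 CPM.

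Negative regulators were called in 7 of 9 tested genes in both comparisons, 2 higher and 5 lower, beside 54.4% and 54.3% of all genes. Traf1 (log2 fold change -0.81 within IgG and -0.76 within anti-IL-6R), Tnip2, the gene of an A20-binding protein (-0.74 and -0.45), and Cyld, a deubiquitinase gene (-0.58 and -0.42), were lower, while Zc3h12a, the gene of the RNase regnase-1 (0.80 and 0.91), and Otulin, the gene of a linear deubiquitinase (0.38 and 0.65), were higher. Nfkbia among the members was lower as well, as given before.

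Of 19 tested NF-kB target genes, 7 were called higher and 8 lower within IgG and 7 higher and 7 lower within anti-IL-6R. The chemokine gene Cxcl5 fell from 251 to 300.2 CPM to 73.6 to 90.4 CPM (log2 fold change -1.62 within IgG, edgeR adjusted p = 4.62e-06), Lcn2, the gene of lipocalin 2, from 18.9 to 29.0 CPM to 4.89 to 8.24 CPM, and Ccl20 from 5.89 to 7.39 CPM to 1.36 to 2.37 CPM. Il1a, the gene of interleukin 1 alpha, rose from 6.08 to 6.84 CPM to 32.0 to 35.6 CPM (log2 fold change 2.30 within IgG, edgeR adjusted p = 4.21e-07), the protease gene Mmp9 from 46.6 to 64.7 CPM to 181 to 235 CPM, and Ccl5 from 1.49 to 2.91 CPM to 4.74 to 7.73 CPM. The cytokine genes Il6, Tnf and Il1b, named after their values were seen, did not pass the filter and stayed under 1 CPM in every library. Il6 was at 0.320 to 0.514 CPM in scramble and 0 to 0.275 CPM in shMCT-1, with at most 17 counts and no test. Tnf and Il1b overlapped between the lines. Target genes thus moved in both directions in the comparison in which 6 members were lower.

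**Figure D5:**
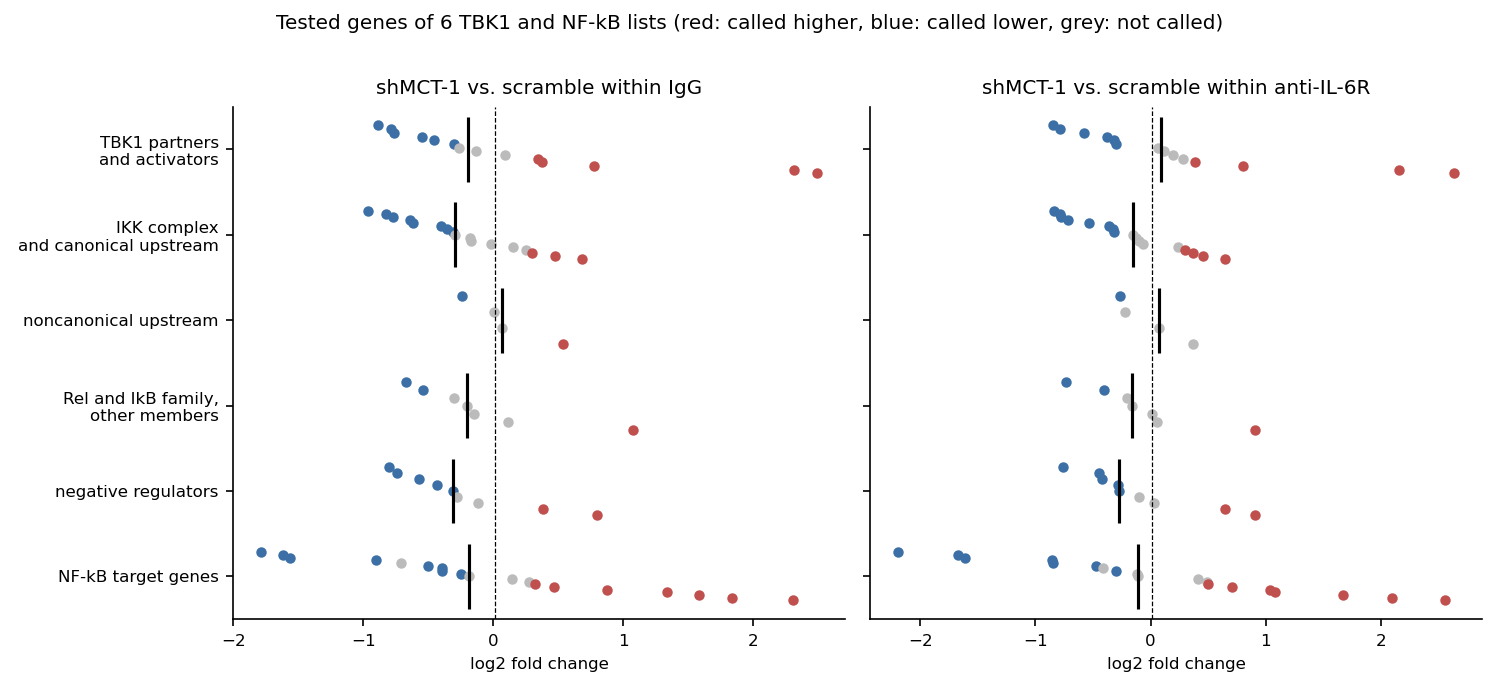
Log2 fold change of shMCT-1 vs. scramble on the x axis for the tested genes of the 6 lists, within IgG (left) and within anti-IL-6R (right), with a black bar at each list's median and a dashed line at the median of all genes. Called genes stand on both sides of 0 in each list, except the noncanonical list within anti-IL-6R, whose called gene above 0 is Cd40, which is at or under 3 counts in the scramble libraries and is not drawn.

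Upon anti-IL-6R, 0 of the 10 genes were called in scramble and 0 in shMCT-1 by edgeR's quasi-likelihood test, beside 0% of all 12704 genes in both comparisons, and the members gave 0 calls with DESeq2 and with edgeR's exact test as well. Over all genes, the exact test called 10 in scramble and 9 in shMCT-1, DESeq2 called 0 and 11, and edgeR's quasi-likelihood test without a filter called 64 and 133. In some fits that left out a library, calls appeared over all genes as well, though none for a member. Such fits have no spread within the reduced group. At an unadjusted p under 0.05 were 0 members in scramble, with 166 of all genes, and 1 in shMCT-1, with 505 of all genes. That member was Nfkb2, which was at 297 and 283 CPM in shMCT-1 + IgG and at 361 and 326 CPM in shMCT-1 + anti-IL-6R, a log2 fold change of 0.25 with a 95% interval from 0.06 to 0.44 (unadjusted p = 0.0161 and adjusted p = 1.00 in edgeR). In scramble its value was 0.03, with an interval from -0.16 to 0.22. In both lines, fewer of all genes had an unadjusted p under 0.05 than that threshold gives by chance. The lack of calls therefore does not show that the antibody had no effect. Spread relative to counting error, as chi-square per degree of freedom, was 27.8 for scramble + IgG but 4.36 for scramble + anti-IL-6R. The shMCT-1 groups had 9.80 under IgG and 18.4 under the antibody. The part of this spread in the low counts was not tested.

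Tbkbp1 can be tested here, since anti-IL-6R played no part in its choice. With anti-IL-6R its log2 fold change was 0.07 in scramble (95% interval -0.27 to 0.41) and 0.10 in shMCT-1 (-0.16 to 0.35). Tank had the lowest value in scramble, -0.28 (-0.61 to 0.04), and it had 0.03 in shMCT-1 (-0.32 to 0.37). Its value in scramble was -0.50 without the first library of scramble + IgG and -0.03 without the second. Nfkbia had 0.03 (-0.17 to 0.23) and -0.04 (-0.24 to 0.17). Over all 10 genes the values lay between -0.28 and 0.13 in scramble and between -0.10 and 0.25 in shMCT-1, and no interval reached below -0.61 or above 0.44, so that larger changes on the log2 scale lie outside the intervals for each gene.

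The interaction of line and anti-IL-6R asks whether the antibody acted differently in the lines. By edgeR 0 of the 10 genes were called, beside 0% of all genes, with 0 members and 315 of all genes at an unadjusted p under 0.05, and DESeq2 called 0 members and 6 of all genes. Without a filter edgeR called 97 of all genes and 0 members. The largest values were those of Tank, 0.31 (95% interval -0.17 to 0.78), and Nfkb2, 0.22 (-0.05 to 0.49). The value of Tank ran from 0.05, without the second library of scramble + IgG, to 0.52 when a library was left out. The comparisons within a line share their libraries with those between the lines. Of the pathway lists, 0 of 71 genes were called upon anti-IL-6R in either line.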

How the data were processed

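RNA from 4T1 cells was measured by poly(A) RNA-seq in 8 libraries, 2 per group, grouped by their sample labels. The authors used cutadapt 1.18 for trimming and STAR 2.7.0d for alignment to mm10 with the GENCODE M19 annotation, and deposited expected counts per gene from RSEM, which are not normalized, and 29.6% of the values above 0 were not whole. Whether counting used strand is not given in the sources used here. Library totals were 19839299 to 33063570 counts.

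The expected counts were rounded, and the 12704 of 54532 genes that exceeded 1 CPM in 2 or more libraries were tested with edgeR 4.0.16 (R 4.3.3; quasi-likelihood test, 4 group means, TMM, Benjamini-Hochberg, called at an adjusted p under 0.05). CPM use the library total, and fold changes come from the fit. Positions are from GENCODE M21 (GRCm38), which matched 54495 gene IDs without their version. The rule for named genes took all 10 members, Mcts1, per pathway list at most 3 genes per direction called in both line comparisons without overlap and with a mean of at least 1 CPM, the 5 tested neighbours on each side of Tbkbp1, and the 5 genes most like it (log2 CPM with a prior count of 2). The members, lists and rules were chosen with earlier results of these data known. Alternatives were RLE size factors, 3 other filters, DESeq2 1.42.0, edgeR's exact test, only the 4 libraries compared, a replicate block, and leaving out each library. TMM factors in the CPM of Tbkbp1 and the overlaps were added after seeing the data. The fits were also run on simulated counts with known fold changes in a small part of the genes. Far more genes were called between the lines here, so that run says little about this setting.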

Additional observations from a re-analysis of the deposited data

How the results depend on the processing

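The fold changes of the members and the counts of calls were computed under 16 alternatives, 8 of them leaving out a library, and for the interaction under 6 beside leaving out a library, without the exact test and the fit of 4 libraries. Length-scaled levels, ratios, chromosome medians, neighbours, the genes most like Tbkbp1 and promoter matches were not computed under alternatives, except for the second length. Tank and Nfkbia kept their calls in both line comparisons under all 16, Nfkb1 under 16 within IgG and 15 within anti-IL-6R, Azi2 under 13 and 12, Tbk1 and Rela within IgG under 10 and 9, and Tbk1 was called within anti-IL-6R under 3. Whether equal replicate numbers pair the samples was not settled. Deviations of the same number in 2 groups correlated by -0.08 to 0.11 over all tested genes, which cannot exclude a pairing that touches part of the genes. With a replicate block, 6 members were called within IgG and 5 within anti-IL-6R, and calls over all genes went from 6912 to 7035 and from 6894 to 7017. Leaving out a library gave 4 to 6 members called within IgG and 2 to 4 within anti-IL-6R, and 33 to 55 and 29 to 50 pathway genes. The difference of Tbkbp1 between the lines, main value 3.67, was 3.61 to 3.71 without a library, and 0 members were called upon anti-IL-6R in every setting. Reversed directions concerned values without a call, and not all of these were near 0. Relb upon anti-IL-6R in scramble, for example, had a main value of 0.13. Rela upon anti-IL-6R in scramble was 0.0231 without a filter and 0.0022 with the strict filter, the interaction was 0.0041 for Azi2 with RLE factors and 0.0042 with DESeq2, and for Relb -0.0041 with the strict filter and -0.0106 with the replicate block. The ranges when a library was left out were, between the lines within IgG, -0.0027 to 0.0901 for Ikbke and -0.2405 to 0.1368 for Relb, and within anti-IL-6R -0.0102 to 0.2483 for Ikbke, -0.1735 to 0.0744 for Relb and -0.0109 to 0.1457 for Nfkb2. Upon anti-IL-6R in scramble they were -0.0791 to 0.2282 for Tbkbp1, -0.0513 to 0.0825 for Ikbke, -0.0092 to 0.0708 for Nfkbia, -0.0620 to 0.0584 for Rela, -0.0484 to 0.3313 for Relb and -0.0035 to 0.0679 for Nfkb2. Upon anti-IL-6R in shMCT-1 they were -0.0323 to 0.2357 for Tbkbp1, -0.2372 to 0.0486 for Tbk1, -0.1048 to 0.1730 for Tank, -0.0411 to 0.2179 for Ikbke and -0.1113 to 0.0414 for Nfkbia. For the interaction they were -0.1314 to 0.1754 for Tbkbp1, -0.0834 to 0.2026 for Tbk1, -0.0805 to 0.0978 for Azi2, -0.0473 to 0.2117 for Ikbke, -0.1429 to 0.0188 for Nfkbia, -0.2002 to 0.1800 for Relb and -0.0107 to 0.1240 for Nfkb1. The cause of these changes was not tested. With 2 libraries per group, and at least 137 counts for each member in each library, the intervals hold both the spread between libraries and counting error. Over the tested genes the spread exceeded counting error in each group, with a chi-square per degree of freedom of 4.36 to 27.8. For the members alone these shares were not computed.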
